A study of Sus scrofa with 12 samples.

Results

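The small RNA pathway was followed in porcine oocytes through 10 genes chosen by name: the Argonautes AGO1, AGO2, AGO3 and AGO4, the nucleases DROSHA and DICER1, the PIWI proteins PIWIL1, PIWIL2 and PIWIL3, and MAEL. Of these, 7 were matched to an Ensembl identifier among the 31908 in the files, whereas AGO1, AGO4 and PIWIL1 were not matched and are not analysed here. The transcriptome was profiled in 12 libraries of oocytes matured in vitro for 0h (GV stage), 22h (Pre-MI stage) or 46h (MII stage), with 4 libraries for each time point. The stage shares come from an earlier study by the same authors, whose 2 later time points differed slightly from 22h and 46h. In that study not all oocytes were at the named stage. The oocytes came from cumulus-oocyte complexes of slaughterhouse ovaries, were stripped of cumulus cells and were pooled for each library. The culture medium held porcine follicular fluid, epidermal growth factor and the gonadotropins PMSG and HCG, so the 22h and 46h oocytes differ from those of 0h in their exposure to these as well as in time, and exposure and time cannot be told apart. The series' design text gives the middle time point slightly later than the sample labels, which are followed here. Nothing says whether the 4 libraries of a time point came from separate cultures or animals, so the p-values measure only the spread between these libraries. Comparing the time points asks how far transcripts of the small RNA machinery change as oocytes resume meiosis and mature towards the MII stage.

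MicroRNAs are cut from primary transcripts by DROSHA in the nucleus and from hairpins by DICER1 in the cytoplasm, and are then loaded on Argonaute proteins, which repress or cleave target mRNAs. PIWI proteins form a separate branch of the Argonaute family that binds piRNAs and silences transposable elements in germ cells, and MAEL is a germ cell factor needed for that silencing. In mammals other than mice and rats, PIWIL3 is known as a PIWI protein of the oocyte.

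FPKM, the unit of the files, scales the fragments of a gene by its length and by the library's fragments, so that levels can be compared between genes. The tests used limma on log2(FPKM + 1) for the 7013 genes whose mean reached 1 FPKM, and a gene passed with an adjusted p under 0.05 and a fold change over 1.5. Fold changes are on the log2(FPKM + 1) scale, which understates the change of low genes. All 7 matched genes passed the filter, AGO3 only just, with a mean of 1.0 FPKM, the lowest of the 7013. Of the 10 oocyte markers matched among 12 listed, all had a mean of at least 1 FPKM, and their summed level in FPKM lay between 16138 and 26678 at 0h, between 22897 and 35126 at 22h and between 15783 and 18902 at 46h. Among 16 matched cumulus and granulosa cell markers, 13 were under 1 FPKM in every library, LHCGR, INHA and AREG were listed at 0 throughout, and their summed FPKM was 46.2 to 88.6 in the 0h libraries, 55.7 to 86.0 in those of 22h and 117.6 to 143 in those of 46h. That sum was mostly VCAN, a matrix proteoglycan, with 29.01 to 81.92 FPKM in the 0h libraries, 47.39 to 77.91 in those of 22h and 104.57 to 135.51 in those of 46h, whereas FST and STAR stayed at 2.06 to 9.58 FPKM. Of 6 matched blood and stromal markers, 4 were under 1 FPKM in every library, HBB and COL1A1 among them at 0 throughout, while the summed FPKM was 9.33 to 11.93 in the 0h libraries, 6.82 to 22.59 in those of 22h and 22.83 to 25.59 in those of 46h, mostly PECAM1. Mitochondrially encoded protein genes, 13 in number, made up 1.79% to 3.77% of the FPKM total at 0h, 8.06% to 12.02% by 22h and 12.8% to 16.7% by 46h. As TPM without these mitochondrial genes, the 7 genes gave the same 4 calls as in the deposited values, and the part of the other shifts, markers included, was not tested. The library of 0h replicate 4 stood apart, with correlations of 0.934 to 0.970 with the others of its group on the log2 scale and with 7895 genes at 1 FPKM or more, the most of any library.

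The libraries were primed with oligo-dT at the poly(A) tail, so the ends of the transcripts bear on what was captured. In the RefSeq annotation of Sscrofa11.1, the last 150 bases of a 3′ UTR could be read for AGO3, DICER1, MAEL, PIWIL2 and PIWIL3. For each gene only the annotated transcript with the longest 3′ UTR was read, of 5 for AGO3, 19 for DICER1, 1 for MAEL, 2 for PIWIL2 and 3 for PIWIL3. Which of these ends the oocytes use was not tested. They were searched on the transcript strand for the polyadenylation hexamer AATAAA or ATTAAA in the last 40 bases, and for the letters TTTTAT or TTTTAAT, those of the cytoplasmic polyadenylation element, in the 100 bases before it. For AGO3 and PIWIL2 the stretch around the element's letters is shown, and for DICER1 and MAEL, in which these letters were not found, the stretch around the hexamer. Capitals mark the letters found, and each stretch is written 5′ to 3′.
AGO3: gttgtatttgtTTTTAATctttgatttaaa
PIWIL2: catttcttctcTTTTATtcctagttttctt
DICER1: aagtaaatctccAATAAAgttatg
MAEL: taggggaatgccATTAAAgttttgagtcct

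These stretches lie in the 3′ UTR, at chr6:92225697-92225726 on the plus strand for AGO3, chr14:6632429-6632458 on the plus strand for PIWIL2, chr7:116361639-116361662 on the minus strand for DICER1 and chr4:83990273-83990302 on the minus strand for MAEL. The element's letters began 78 bases before the AATAAA hexamer in AGO3 and 68 bases before it in PIWIL2. The PIWIL3 window held neither hexamer, which says only that these letters are not in it. Among 16630 genes with a 3′ UTR of at least 150 bases, 65.7% had a hexamer and 12.1% had both a hexamer and the element's letters. The models of AGO2, which carries no 3′ UTR, and DROSHA, whose 3′ UTR is 132 bases long, were too short to be read.

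PIWIL3 transcripts fell at both steps of maturation, and AGO2 transcripts fell between 0h and 46h. None of the 7 genes passed as higher on the log2(FPKM + 1) scale of the values as deposited. With 0.1 added in place of 1, PIWIL2 passed as higher at 46h against 0h (0.61, adjusted p = 0.0373). Mean PIWIL3 was 15.3 FPKM ± 1.39 at 0h, 8.66 ± 1.24 at 22h and 3.98 ± 0.883 at 46h (SD, n = 4). Mean AGO2 was 4.47 FPKM ± 2.18 at 0h and 1.70 ± 0.383 at 46h. MAEL was by far the most abundant, at 468 to 673 FPKM on average. The libraries were primed at the poly(A) tail, and FPKM is relative to its library. In these bulk samples, less RNA per oocyte, fewer oocytes with the transcript and less capture through the tail cannot be told apart.

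At 22h against 0h, 1 of the 7 genes was lower and 0 higher, where 18.9% of all genes tested were lower and 7.84% higher. Without 0h replicate 4, 862 of all genes were higher, beside 550 with it, and the 7 genes still gave 1 lower and 0 higher. At 46h against 22h, 1 was lower and 0 higher, where the shares over all genes were 32.6% lower and 9.87% higher. At 46h against 0h, 2 were lower and 0 higher, beside 39.1% lower and 16.8% higher over all genes. The median log2 fold change of the 7 genes was -0.01, -0.40 and -0.22 in these comparisons, and that of all genes tested was -0.0012, -0.26 and -0.25. The median of -0.40 is the value of AGO3, which reached the filter of 1 FPKM only through its 0h and 22h libraries. The counts of the 7 genes lie near or under the shares over all genes.

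**Figure D1:**
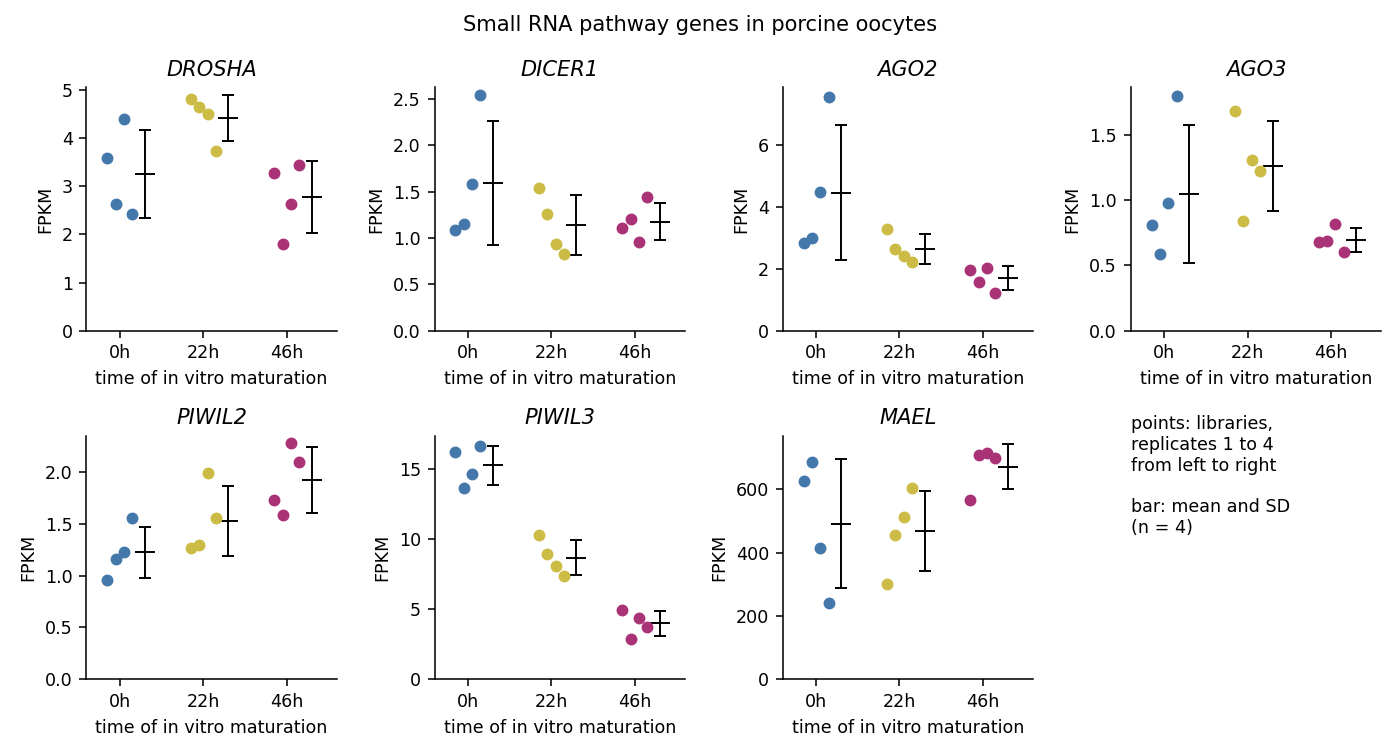
Level of each of the 7 matched genes in FPKM (vertical axis, from 0) by time of in vitro maturation (horizontal axis), with 1 point for each library, and the mean and SD of the 4 libraries. PIWIL3 steps down with no overlap between time points, and AGO2 is spread widely at 0h because of replicate 4 at 7.55 FPKM.

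DROSHA, the nuclear nuclease that releases microRNA hairpins from primary transcripts, lies on chr16:17727695-17847954 of Sscrofa11.1 (ENSSSCG00000016809). Its FPKM values were 3.59, 2.63, 4.39 and 2.42 at 0h, 4.80, 4.65, 4.50 and 3.73 at 22h, and 3.27, 1.79, 2.62 and 3.43 at 46h. All 4 libraries at 22h were above all 4 at 46h, while 0h overlapped with both. Between 22h and 46h the log2 fold change was -0.54 (95% interval -0.95 to -0.13, adjusted p = 0.0294), which met the p threshold and not the fold threshold. Without 22h replicate 4, 46h replicate 1 or 46h replicate 4 it passed both, at -0.60, -0.61 and -0.62. The adjusted p rose above its threshold without 22h replicate 1 (0.0662), 2 (0.0607) or 3 (0.0582) or 46h replicate 2 (0.1) or 3 (0.059). DROSHA was at -0.29 (adjusted p = 0.208) after median-of-ratios scaling, in which the median gene does not move, and at -0.02 (adjusted p = 0.949) after quantile normalization, which gives every library the same distribution of values. The difference was 0.37 between 0h and 22h (adjusted p = 0.154) and -0.17 between 0h and 46h (adjusted p = 0.45). The latter ranged from -0.27 to -0.03 when 1 library was left out.

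DICER1, the cytoplasmic nuclease that cuts hairpins into microRNA duplexes, lies on chr7:116361630-116436471 (ENSSSCG00000028225). It was low at every time point, with 1.09, 1.15, 1.58 and 2.54 FPKM at 0h, 1.54, 1.26, 0.94 and 0.83 at 22h, and 1.11, 1.2, 0.96 and 1.44 at 46h. The 3 groups overlapped in every comparison, and the highest value was that of 0h replicate 4. The log2 fold changes were -0.25 at 22h against 0h (adjusted p = 0.313), 0.03 at 46h against 22h (adjusted p = 0.902) and -0.22 at 46h against 0h (adjusted p = 0.308), none of which passed. Quantile normalization made DICER1 pass as higher at 46h against 22h (0.60, adjusted p = 0.00631).

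AGO2 is the Argonaute that can itself cleave a target RNA, and it lies on chr4:2966794-3012388 (ENSSSCG00000005935). Its levels were 2.85, 2.99, 4.47 and 7.55 FPKM at 0h, 3.29, 2.65, 2.41 and 2.21 at 22h, and 1.97, 1.59, 2.04 and 1.21 at 46h. Every library at 46h was below every library at 0h and at 22h, while 0h and 22h overlapped. Between 0h and 46h AGO2 changed by -0.95 on the log2 scale (95% interval -1.44 to -0.46, adjusted p = 0.00237), and the mean was 2.62 times as high at 0h as at 46h. Without 0h replicate 4, which had the highest AGO2 level, the mean at 0h was 3.44 FPKM and the log2 fold change -0.71 (adjusted p = 0.0034). The changes of -0.52 by 22h (adjusted p = 0.102) and -0.43 from 22h to 46h (adjusted p = 0.137) did not pass. Without 0h replicate 4 the change by 22h was -0.28 (adjusted p = 0.241). Quantile normalization ended the call at 46h against 0h (-0.26, adjusted p = 0.208).

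AGO3, an Argonaute that likewise binds microRNAs, lies on chr6:92081763-92225811 (ENSSSCG00000003630). It measured 0.81, 0.59, 0.98 and 1.80 FPKM at 0h, 1.68, 0.84, 1.31 and 1.22 at 22h, and 0.68, 0.69, 0.82 and 0.60 at 46h. The 46h libraries lay below all those of 22h, by the smallest of margins (0.82 against 0.84 FPKM), and overlapped with those of 0h. AGO3 reached the filter of 1 FPKM only through its 0h and 22h libraries (means of 1.045 and 1.26 FPKM, beside 0.698 at 46h). A lower level at 46h was thus built into its being tested. No comparison passed, the log2 fold change being 0.17 to 22h (adjusted p = 0.511), -0.40 from 22h to 46h (adjusted p = 0.0796) and -0.24 from 0h to 46h (adjusted p = 0.268). Argonaute genes are close paralogs, and how the quantification divided reads that match more than 1 of them was not tested.

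Set beside each other, AGO2 made up 81.0% ± 2.40 (SD, n = 4) of the summed FPKM of AGO2 and AGO3 at 0h, 67.8% ± 5.45 at 22h and 70.6% ± 3.13 at 46h. The 0h libraries ranged from 77.9% to 83.5%, above all others, and those of 22h (64.4% to 75.9%) and 46h (66.9% to 74.3%) overlapped. This share is a description, as AGO1 and AGO4 do not enter it.

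PIWIL3 lies on chr14:42834819-42869486 (ENSSSCG00000009950) and encodes a piRNA-binding PIWI protein. It was at 16.17, 13.62, 14.60 and 16.62 FPKM at 0h, at 10.26, 8.90, 8.08 and 7.38 at 22h, and at 4.91, 2.86, 4.39 and 3.75 at 46h. No library of a later time point reached the lowest of an earlier one. PIWIL3 changed by -0.76 on the log2 scale from 0h to 22h (95% interval -1.11 to -0.40, adjusted p = 0.00361) and by -0.97 from 22h to 46h (-1.32 to -0.61, adjusted p = 0.000261). Across the whole of maturation it was -1.72 (-2.08 to -1.37, adjusted p = 5.15e-07), and the mean at 0h was 3.83 times that at 46h. Rescaling without mitochondrially encoded genes gave -1.71 (adjusted p = 6.52e-07). Leaving out 1 library at a time kept the change at 46h against 0h between -1.81 and -1.60. Quantile normalization took the step from 22h to 46h under the fold threshold (-0.47, adjusted p = 0.0194).

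PIWIL2, on chr14:6560402-6632524 (ENSSSCG00000030228), is a PIWI protein known from germ cell development and transposon silencing. Its FPKM values were 0.96, 1.16, 1.23 and 1.55 at 0h, 1.27, 1.29, 1.99 and 1.55 at 22h, and 1.73, 1.58, 2.28 and 2.09 at 46h. The 46h libraries all lay above those of 0h, the closest pair being 1.58 and 1.55 FPKM, and 22h overlapped with both. From 0h to 46h its change of 0.39 on the log2 scale (95% interval 0.07 to 0.72) met the p threshold (adjusted p = 0.0349) and not the fold threshold. With median-of-ratios scaling, PIWIL2 passed as higher (0.60, adjusted p = 0.00117), and it did so with quantile normalization (1.09, adjusted p = 6.12e-06) and a pseudocount of 0.1 (0.61, adjusted p = 0.0373). The adjusted p rose above the threshold without 0h replicate 1 (0.0997), 0h replicate 2 (0.0633), 0h replicate 3 (0.0642), 46h replicate 3 (0.0939) or 46h replicate 4 (0.082). It was also above the threshold as TPM (0.37, adjusted p = 0.0709) and with no filter (adjusted p = 0.0622). The steps of 0.18 to 22h (adjusted p = 0.387) and 0.21 from 22h to 46h (adjusted p = 0.262) did not pass, the latter becoming a call with quantile normalization (0.74, adjusted p = 0.000383). The former ranged from 0.0955 to 0.25 when 1 library was left out.

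PIWIL3 made up 92.6% ± 1.27 (SD, n = 4) of the summed FPKM of PIWIL3 and PIWIL2 at 0h, 84.8% ± 4.06 at 22h and 67.1% ± 4.62 at 46h. The ranges of 91.5% to 94.4%, 80.2% to 89.0% and 64.2% to 73.9% did not overlap. Both genes are measured in the same library, so a common rescaling of all genes in a library leaves this share where it is. It is given without a test, and PIWIL1 does not enter it.

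**Figure D2:**
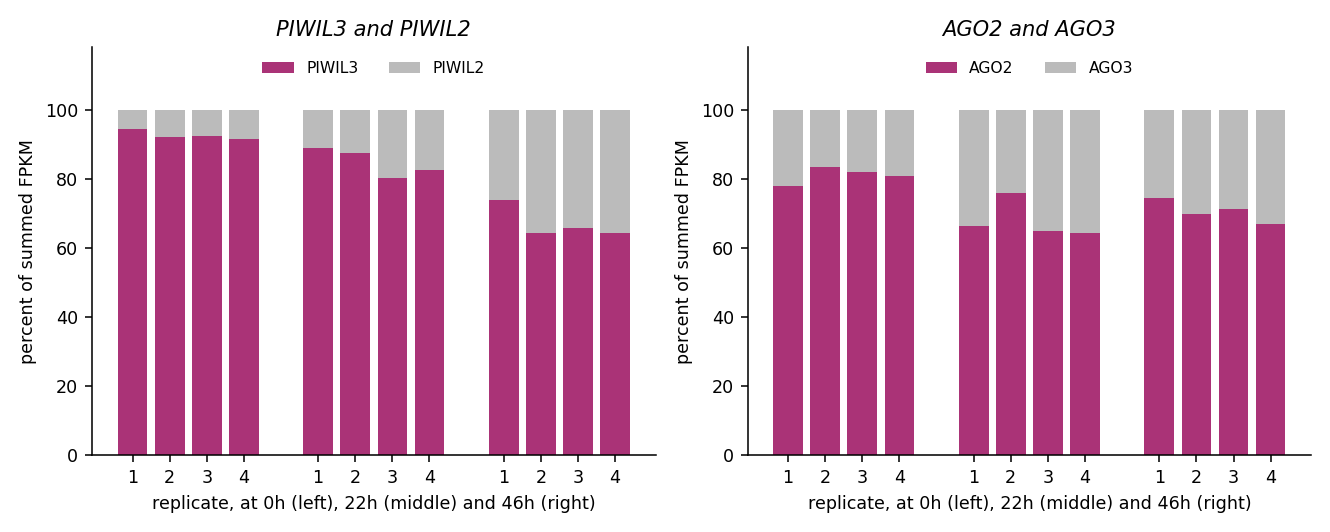
Percent of summed FPKM (vertical axis) taken by PIWIL3 and PIWIL2 and by AGO2 and AGO3 in each of the 12 libraries, by replicate at 0h, 22h and 46h. The PIWIL3 share lies at 91.5% to 94.4% at 0h and at 64.2% to 73.9% at 46h, and PIWIL3 stays the larger of the pair in every library.

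MAEL, the germ cell factor of the piRNA pathway, lies on chr4:83990266-84040465 (ENSSSCG00000006316) and ranked 165 of 7013 genes by mean level. Its FPKM values were 625.99, 686.60, 414.47 and 241.32 at 0h, 300.37, 456.63, 511.63 and 604.30 at 22h, and 565.56, 710.09, 716.44 and 698.22 at 46h. The groups overlapped in every comparison, with 0h replicate 4 and 22h replicate 1 the lowest libraries. No change passed, with log2 fold changes of -0.01 at 22h against 0h (adjusted p = 0.991), 0.56 at 46h against 22h (adjusted p = 0.135) and 0.55 at 46h against 0h (95% interval -0.08 to 1.19, adjusted p = 0.117). The last became 0.75 (adjusted p = 0.042) without 0h replicate 2 and 0.25 (adjusted p = 0.364) without 0h replicate 4. Median-of-ratios scaling made MAEL pass as higher at 46h, by 0.88 against 0h (adjusted p = 0.0337) and by 0.88 against 22h (adjusted p = 0.0432).

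**Figure D3:**
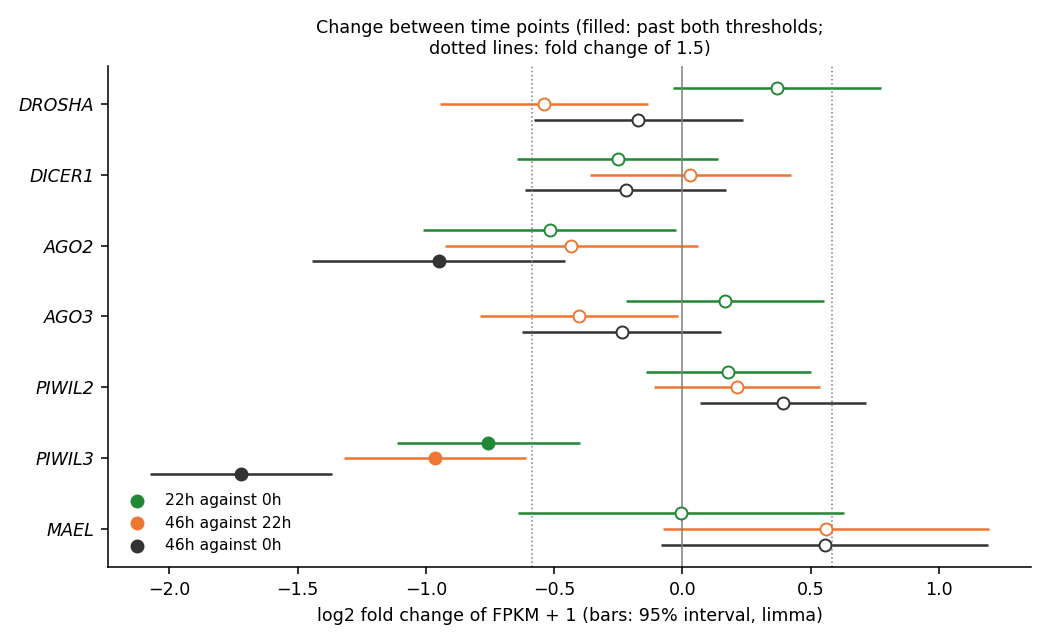
The log2 fold change of FPKM + 1 (horizontal axis) for each gene (vertical axis) in the 3 comparisons of time points, with bars for the 95% interval from limma and filled points for genes past both thresholds. Filled points stand at PIWIL3 in all 3 comparisons and at AGO2 at 46h against 0h, and the interval of MAEL at 46h against 0h runs from -0.08 to 1.19.

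The order of levels changed with time. At 0h, MAEL stood highest and PIWIL3 next, each apart from its neighbours, followed by AGO2, DROSHA, DICER1, PIWIL2 and AGO3, each of which overlapped with the next. At 22h, DROSHA came after PIWIL3, AGO2 after DROSHA and PIWIL2 after AGO2 without overlap, and PIWIL2, AGO3 and DICER1 each overlapped with the next. By 46h, PIWIL3 overlapped with DROSHA, the next gene, and AGO3 lay below all the others, at 0.698 FPKM ± 0.0911 (SD, n = 4). Over all libraries, the mean level of PIWIL3 ranked 3151, DROSHA 4784, AGO2 5086, PIWIL2 6241, DICER1 6560 and AGO3 7013 of the 7013 genes tested.

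A few libraries stood high or low in several genes together. Among the 0h libraries, replicate 4 had the highest AGO2, AGO3, DICER1, PIWIL2 and PIWIL3 and the lowest MAEL and DROSHA. Replicate 1 at 22h had the highest AGO2, AGO3, DICER1, DROSHA and PIWIL3 of its group and the lowest MAEL. Across the 12 libraries, Pearson's r of log2(FPKM + 1) between MAEL and AGO3 was -0.84, between MAEL and AGO2 -0.83 and between AGO2 and PIWIL3 0.83. These are descriptions over libraries that share time points and scaling.

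Since FPKM is a value relative to its library, the direction of the smaller changes depends on the scaling. Over all genes, the median change from 0h to 46h on the log2 scale was -0.25 as deposited, -0.35 as TPM, 0.00 after median-of-ratios scaling and 0.37 after quantile normalization. PIWIL3 was lower under each of these, from -1.07 with quantile normalization to -1.87 as TPM. AGO2 was below 0 in each as well, though not past the thresholds with quantile normalization, whereas AGO3 (0.50), DROSHA (0.52) and DICER1 (0.48) were above 0 at 46h against 0h with quantile normalization, and DROSHA (0.07) with median-of-ratios scaling.

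**Figure D4:**
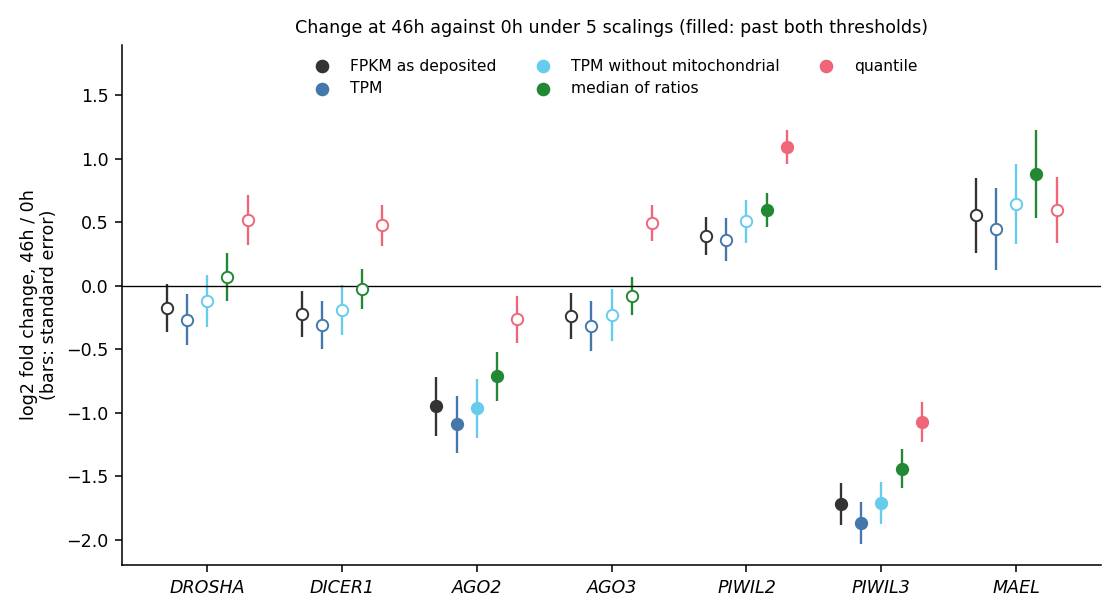
Change on the log2 scale from 0h to 46h (vertical axis, bars for the standard error) for each gene (horizontal axis) under 5 scalings of the values, with filled points for genes past both thresholds. PIWIL3 stays below -1 in all 5, and AGO3, DROSHA and DICER1 lie above 0 with quantile normalization.

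The genes whose pattern over the 12 libraries was most like that of each gene were taken from 6111 named genes by Pearson's r of log2(FPKM + 1), as a description. For PIWIL3 they were FAM162A (0.98), GEMIN2 (0.98) and UXT (0.98). Their mean levels went from 647 FPKM at 0h over 148 to 23.6 at 46h for FAM162A, from 16.4 over 5.55 to 0.623 for GEMIN2 and from 81.3 over 24.6 to 2.62 for UXT. For AGO2 they were DCAF17 (0.965), SAP18 (0.965) and EFNB1 (0.962), and for AGO3 KIAA0319L (0.971), BCL2L13 (0.960) and PI4K2A (0.958). MAEL was most like WEE2 (0.974), an oocyte kinase that holds back meiosis, at 1283, 1524 and 2890 FPKM over the 3 time points, and like ERO1B (0.970) and GNPNAT1 (0.969). PIWIL2 was most like ANKRD10 (0.959), NFKBIA (0.932) and YPEL3 (0.920), and DICER1 most like CCDC82 (0.940), SPTBN1 (0.930) and CEP128. For DROSHA the likeness was least close, with NFATC3 (0.870), SLC25A36 (0.845) and RAB6A (0.832).

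Beyond the 7 genes, 68 partners in 4 lists were looked up, of which 59 were matched and 41 tested. At 46h against 0h, 6 of the 41 rose and 13 fell (14.6% and 31.7%), beside 16.8% and 39.1% over all genes. At 22h against 0h, 3 rose and 7 fell, beside 7.84% and 18.9% over all genes, and at 46h against 22h, 4 rose and 8 fell, beside 9.87% and 32.6%. The balance turned with the scaling. At 46h against 0h, 12 partners were higher and 11 lower after median-of-ratios scaling, and 17 higher and 6 lower after quantile normalization, beside 1890 and 2393 of all genes in the former and 2877 and 1789 in the latter. At 46h against 22h, these scalings gave 8 partners higher and 5 lower (1342 and 1839 of all genes), and 13 higher and 3 lower (1971 and 1340 of all genes). In the same comparison, TPM gave 1 partner higher and 11 lower (525 and 2522 of all genes). Leaving out 46h replicate 4 gave 1 partner higher and 8 lower (584 and 2161 of all genes). The median of their log2 fold changes from 0h to 46h was -0.14, against -0.25 for all genes.

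Among 6 tested genes of microRNA processing, 2 fell (33.3%, beside 39.1% of all genes) and 0 rose at 46h against 0h, with a median of 0.03. After median-of-ratios scaling SAFB and SAFB2 passed as higher (2 higher and 2 lower, beside 1890 and 2393 of all genes). After quantile normalization so did XPO5 (3 higher and 2 lower, beside 2877 and 1789 of all genes). The 2 that fell were DGCR8 and TARBP2. DGCR8, which forms the Microprocessor with DROSHA, was at 4.36, 2.57, 6.47 and 9.16 FPKM at 0h, 2.85, 0.46, 1.56 and 0.93 at 22h, and 0.24, 0.32, 0.61 and 0.47 at 46h. It fell by 1.43 on the log2 scale to 22h (adjusted p = 0.00392) and by 2.14 to 46h (adjusted p = 3.88e-05), and all 46h libraries lay below all others except that of 22h replicate 2. TARBP2, a partner of DICER1, averaged 3.65 FPKM at 0h, 1.46 at 22h and 0.11 at 46h (-1.92 at 46h against 0h, adjusted p = 0.000163). Its mean at 0h was 2.4 FPKM without replicate 4, which stood at 7.39. Both DGCR8 and TARBP2 reached the filter of 1 FPKM only through their 0h libraries, so that a fall was built into their being tested. DDX5, a helicase of the Microprocessor and the most abundant on the list, averaged 127, 119 and 113 FPKM (-0.14, adjusted p = 0.531).

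Of 12 tested RISC partners and loading factors, 6 fell (50%, beside 39.1% of all genes) and 0 rose at 46h against 0h, with a median of -0.47. TNRC6A, a scaffold that joins Argonautes to silencing factors, was higher at 22h against 0h (0.86, adjusted p = 0.00535). At 46h against 0h, median-of-ratios scaling gave 1 higher (TNRC6A) and 5 lower, and quantile normalization 3 higher (TNRC6A, TNRC6B and FMR1) and 3 lower. Over all genes, the former gave 1890 higher and 2393 lower and the latter 2877 higher and 1789 lower. The change was greatest for AJUBA, a LIM protein known to bind Argonautes, which ranged from 56.87 to 84.62 FPKM over the 0h libraries, from 56.08 to 75.86 over those of 22h and from 0.58 to 1.23 over those of 46h. AJUBA fell by 5.28 on the log2 scale to 46h (adjusted p = 1.91e-11), while its change to 22h was -0.17 (adjusted p = 0.491). The HSP90 chaperone machinery that loads Argonautes was split, in that HSP90AA1 averaged 202, 74.6 and 34.2 FPKM (-2.45, adjusted p = 2.78e-06) and its co-chaperone FKBP4 8.19, 3.12 and 0.672 (-2.46, adjusted p = 1.73e-07), whereas HSP90AB1 averaged 228, 259 and 228 (0.05, adjusted p = 0.855). SND1, a nuclease of RISC, averaged 8.02, 4.43 and 3.69 FPKM (-0.94, adjusted p = 0.000106), and TSN and TSNAX, the subunits of the C3PO nuclease, fell by 0.92 (adjusted p = 0.000109) and 0.73 (adjusted p = 0.00871). These last 3 calls were lost with quantile normalization, and that of TSNAX also with median-of-ratios scaling. AJUBA and FKBP4, with means of 0.93 and 0.672 FPKM at 46h, reached the filter of 1 FPKM only through their 0h and 22h libraries. A lower level at 46h was thus built into their being tested.

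Of 9 tested genes of small RNA tailing and turnover, 2 rose and 2 fell (22.2% each, beside 16.8% and 39.1% of all genes) at 46h against 0h, with a median of -0.13. Quantile normalization gave 3 higher, TENT2 among them, and 0 lower, beside 2877 and 1789 of all genes. PNPT1, an exoribonuclease, averaged 7.98, 7.01 and 16.6 FPKM over the 3 time points (1.02, adjusted p = 0.00273), and XRN1, a 5′ to 3′ exoribonuclease, 1.87, 2.15 and 3.86 (0.74, adjusted p = 0.00346). LIN28B, which blocks the maturation of let-7 microRNAs, averaged 1.95, 0.88 and 0.185 FPKM (-1.29, adjusted p = 0.000231), a call lost with quantile normalization (-0.52, adjusted p = 0.0199). It reached the filter of 1 FPKM only through the 0h libraries, so that a fall was built into its being tested. ERI1, another exoribonuclease, averaged 10.1, 8.44 and 6.38 FPKM (-0.59, adjusted p = 0.00209), but dropped under the fold threshold without 0h replicate 1 (-0.53) or 46h replicate 1 (-0.53) and as TPM without mitochondrially encoded genes (-0.53), and stood at -0.30 after median-of-ratios scaling and at 0.08 after quantile normalization. XRN2, the most abundant, averaged 14.5, 9.76 and 12.8 FPKM (-0.18, adjusted p = 0.456).

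Of 14 tested piRNA pathway partners, 4 rose and 3 fell (28.6% and 21.4%, beside 16.8% and 39.1% of all genes) at 46h against 0h, with a median of 0.19. With median-of-ratios scaling EXD1, TDRD1 and TDRD6 passed as higher too (7 higher and 3 lower, beside 1890 and 2393 of all genes). Quantile normalization added TDRD12 (8 higher and 1 lower, beside 2877 and 1789 of all genes). GTSF1, a zinc finger protein that binds PIWI proteins, was at 332.66, 347.42, 338.28 and 311.90 FPKM at 0h, 49.62, 29.92, 36.38 and 45.43 at 22h, and 19.51, 29.45, 23.72 and 30.94 at 46h. It fell by 3.04 on the log2 scale to 22h (adjusted p = 1.43e-06) and by 3.65 to 46h (adjusted p = 9.39e-10). From 22h to 46h the groups overlapped, and the change of -0.62 (adjusted p = 0.0148) fell under the fold threshold without 22h replicate 1 (-0.51), 22h replicate 4 (-0.55), 46h replicate 1 (-0.49) or 46h replicate 3 (-0.58), and was -0.30 after median-of-ratios scaling and -0.18 after quantile normalization. HENMT1, which methylates the 3′ end of piRNAs, was the most abundant, with 320.10 to 646.99 FPKM in the 0h libraries, 545.18 to 867.07 in those of 22h and 888.65 to 1366.26 in those of 46h (1.03 at 46h against 0h, adjusted p = 0.00151).

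FKBP6, a co-chaperone of piRNA loading, also rose (0.72, adjusted p = 0.00645), as did the Tudor domain proteins RNF17 (0.68, adjusted p = 0.000556) and TDRD5 (0.66, adjusted p = 0.0164). TDRD5 dropped under the fold threshold without 0h replicate 4 (0.48) and was at an adjusted p of 0.0555 as TPM. DDX4, the germ cell helicase VASA, averaged 2.12, 0.958 and 0.688 FPKM (-0.90, adjusted p = 0.000158), and ASZ1, a mitochondrial scaffold of the pathway, 5.17, 7.12 and 2.48 (-0.86, adjusted p = 0.00296). With quantile normalization DDX4 (-0.20) and ASZ1 (-0.16) no longer passed. DDX4 likewise reached the filter of 1 FPKM only through its 0h libraries. PIWIL4 was listed at 0 in every library.

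**Figure D5:**
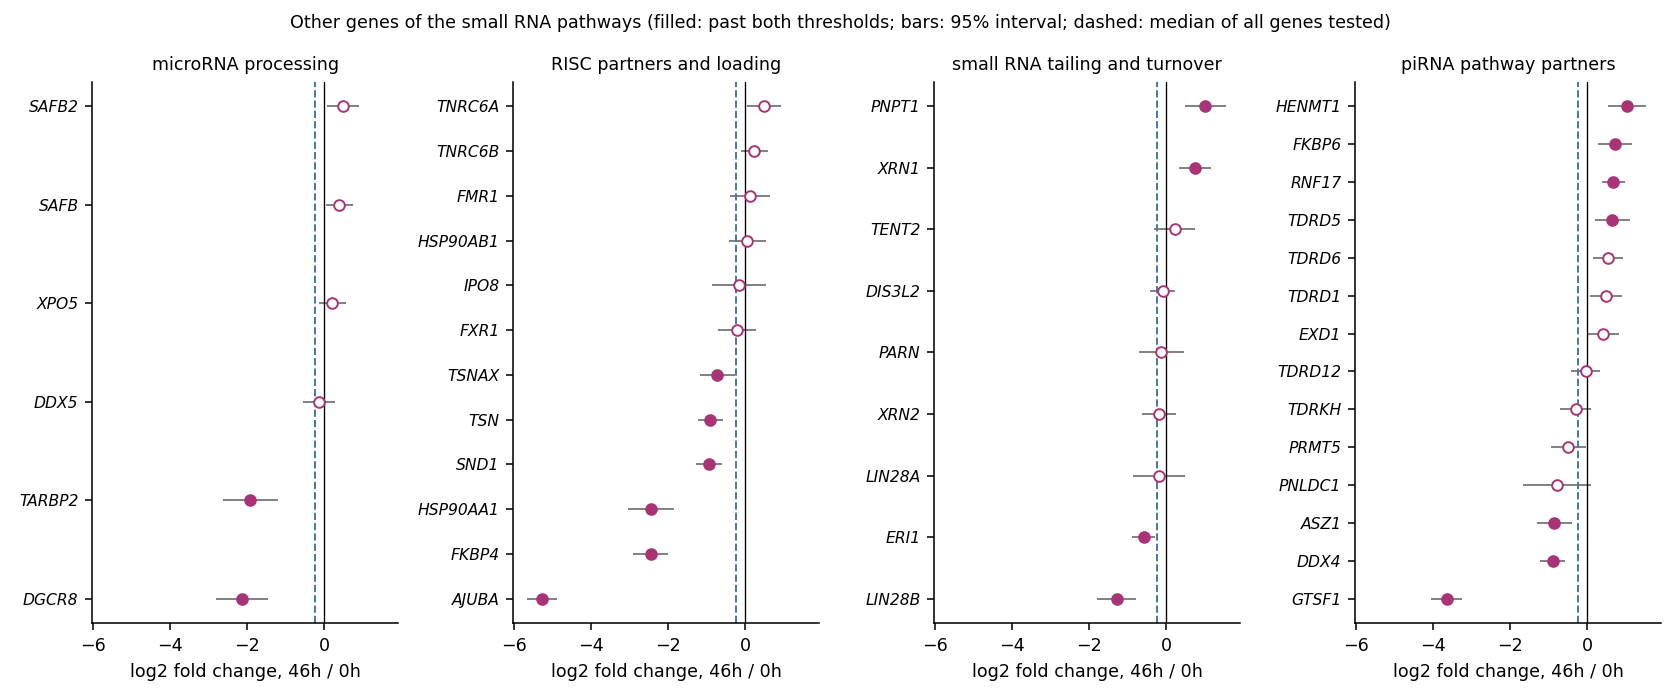
Change on the log2 scale from 0h to 46h (horizontal axis) of the 41 tested partner genes in 4 lists, with bars for the 95% interval, filled points for genes past both thresholds and a dashed line at the median of all genes tested (-0.25). AJUBA at -5.28 and GTSF1 at -3.65 lie farthest to the left, and HENMT1 (1.03) and PNPT1 (1.02) farthest to the right among filled points.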

How the data were processed

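The files hold 1 FPKM value for each Ensembl identifier and library, and the authors made these FPKM values with RSEM after trimming with Trim Galore and aligning SMART-Seq2 reads to the swine genome Sscrofa11 with STAR. FPKM follows polyadenylated RNA, because cDNA was primed with oligo-dT. No counts were at hand, so depth is unknown and no counting interval is given, and the DESeq2 test of the authors was replaced by limma. The FPKM totals as deposited were 697468 to 802184.

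Of 31908 identifiers, 15029 were named from a gene name table and 14275 were at 0 in every library. The tests ran on log2(FPKM + 1) under R 4.3.3 with limma 3.58.1, by lmFit and a trended eBayes, with time point as the only factor over 12 libraries, two-sided, and with Benjamini-Hochberg adjustment over 7013 genes. The fit was tested on simulated data. Sequences were read from the RefSeq genome Sscrofa11.1 with pysam 0.24.0, whose coordinates are those printed. Tables and figures were made with Python 3.11.15, pandas 2.3.3 and matplotlib 3.10.9.

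The genes and lists were chosen with earlier results of these data known. Named partners are the up to 4 with the largest change past the thresholds at 46h against 0h in each list, and the most abundant; TSN, TSNAX, FKBP6, RNF17, TDRD5, TDRD1, TDRD6, TDRD12, EXD1, SAFB, SAFB2, XPO5, TNRC6A, TNRC6B, FMR1, TENT2 and PIWIL4 were named after their values were seen. Alternatives were median-of-ratios scaling, TPM (also leaving out mitochondrial genes), quantile normalization, a pseudocount of 0.1, a filter at a mean of 5 FPKM or none, fits without trend or of only the groups compared, a replicate block, other thresholds, and each library left out in turn.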

Additional observations from a re-analysis of the deposited data

Results flagged for a closer look

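MAEL in 46h replicate 1 was at 565.56 FPKM, apart from the 698.22 to 716.44 FPKM of the other 3 libraries of that time point, so that the gap to the nearest of them was 0.879 of the group's range, above the limit that Dixon's test sets for 4 values. It was the only library to stand apart in this way among the 72 groups of 4 libraries looked at, and chance gives about 1 in 20.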

How the results depend on the processing

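PIWIL3 passed as lower at 22h against 0h and at 46h against 0h under all 22 other settings of scaling, filter, fit and libraries, and at 46h against 22h under 21 of them. The cause was not tested for any change given here, that of PIWIL3 included. With a fold change over 2, the genes passing were 871 at 22h against 0h, 1736 at 46h against 22h and 2687 at 46h against 0h, the pathway genes 0, 0 and 1 over the 3 comparisons, and the partner genes 4, 6 and 9. A mean of at least 5 FPKM left 4144 genes, 2 of the pathway genes and 26 of the partners, of which 1299, 2006 and 2546 genes and 5, 6 and 12 partners passed in the 3 comparisons, and 1 pathway gene at 46h against 0h. Of the pathway genes, 2 passed at 46h against 22h in several settings: both lower (PIWIL3 and DROSHA) with a pseudocount of 0.1, as TPM and by adjusted p alone, 1 higher (MAEL) and 1 lower (PIWIL3) with median-of-ratios scaling, and 2 higher (DICER1 and PIWIL2) and 0 lower with quantile normalization. With 1 library left out, 1 to 2 passed. At 46h against 0h, 4 passed with median-of-ratios scaling, 2 higher (PIWIL2 and MAEL) and 2 lower (PIWIL3 and AGO2), beside 1890 and 2393 of all genes. At 46h against 22h, the genes higher and lower over all genes were 770 and 2484 with a pseudocount of 0.1 and 525 and 2522 as TPM. They were 928 and 2494 by adjusted p alone and 1342 and 1839 with median-of-ratios scaling. Over all genes, those higher and lower were 1048 and 1126 at 22h against 0h and 1971 and 1340 at 46h against 22h with quantile normalization, against 550 and 1323 and 692 and 2283 as deposited.

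Quantile normalization moved the PIWIL3 share at 0h to 94.0% and the AGO2 share to 84.5% at 0h and 66.6% at 46h. It also turned the direction of AGO2 (0.063) and AGO3 (0.16) at 46h against 22h, of AGO3 (0.50), DROSHA (0.52) and DICER1 (0.48) at 46h against 0h, and of MAEL at 22h against 0h (0.075). Median-of-ratios scaling turned DROSHA at 46h against 0h (0.068) and MAEL at 22h against 0h (0.001), TPM turned DICER1 at 46h against 22h (-0.016), and TPM without mitochondrial genes MAEL at 22h against 0h (0.078). With 1 library left out, DICER1 at 46h against 22h ranged from -0.041 to 0.12 and MAEL at 22h against 0h from -0.31 to 0.19.

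The replicate numbers were not taken as pairs, since of 12 same-numbered pairs, 3 had a correlation of deviations over 0.1 (-0.466 to 0.381). All 3 were between 22h and 46h (0.381, 0.211 and 0.127), where these also correlated best with their own number, a hint from the data and not the design. With the replicate block, 1801, 2933 and 3894 genes passed in the 3 comparisons, with 1, 1 and 2 of the pathway genes and 10, 11 and 19 of the partners. The unknown depth limits the low genes, of which AGO3, DICER1 and PIWIL2 were under 3 FPKM in every library.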
